A study of Mus musculus with 42 samples.

Results

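The hnRNP and core spliceosome proteins described here are 54 protein-coding mouse genes, chosen by symbol from 55487 gene identifiers counted in leukaemia cells. They are 20 hnRNP genes (symbols starting Hnrnp), 12 snRNP protein genes (Snrp), 9 SF3 genes (Sf3a or Sf3b with a number) and 13 PRPF genes (Prpf with a number). The symbol patterns matched 59 identifiers, and 5 copies or pseudogenes were left out (Hnrnpa1l2-ps, Hnrnpa1l2-ps2, Snrpert, Snrp1c-ps1 and Snrp1c-ps2). All 54 members passed the filter on low counts in ribosome footprints and 53 passed it in mRNA, where Snrpn was the exception.

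Heterogeneous nuclear ribonucleoproteins (hnRNPs) coat newly made RNA and influence which splice sites are used, and several also act on the stability and transport of mature mRNA. Small nuclear ribonucleoproteins (snRNPs) are the building blocks of the spliceosome, and in most of them a ring of Sm proteins holds a small nuclear RNA. SF3 proteins belong to the U2 snRNP, which recognises the branch point of an intron, and the PRPF proteins include the catalytic core, the U4/U6.U5 tri-snRNP and activating factors. Splicing factors are recurrently mutated in human myeloid neoplasms, SF3B1 among them.

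The cells were viable, GFP-positive MLL-AF9 leukaemia cells sorted from bone marrow, an acute myeloid leukaemia model driven by a fusion of Mll and Af9. A red cell lysis of 5 min was part of the preparation in every group. Every group was labelled wild type, and every male recipient, 8 to 10 weeks old and not preconditioned, received cells that came from 1 terminally ill mouse and had been expanded ex vivo. Mice were euthanized at maximum response. Each of the 21 mice gave 1 ribosome footprint library and 1 Smart-seq2 mRNA library from the same cell lysate. The first group ate a diet free of branched-chain amino acids (BCAA-free) and received 5+3, which is cytarabine at 100 mg/kg daily for 5 days with doxorubicin at 3 mg/kg daily for 3 days (BCAA-free 5+3, 7 mice). The others were BCAA-free vehicle (5 mice, PBS), AA 5+3 (4 mice on a diet with standard amino acids, AA) and AA vehicle (5 mice, PBS). Names of AA vehicle mice, and of no other group, end in the letter B, whose meaning is not stated. Were it a processing batch, it and the group cannot be told apart.

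Total counts were 2697092 to 8863472 in footprint libraries and 30996200 to 70437713 in mRNA libraries. On the first principal component of the mRNA libraries, 3 of the 5 BCAA-free vehicle mice and 1 BCAA-free 5+3 mouse stood apart, at -256, -117, -70.7 and -53.3 against -18.4 to 67.6 in the other 17, and results that rest on them are also given without these 4 mice. On that of the footprint libraries AA vehicle replicates 1 and 2, the shallowest libraries, were at -48 and -58.4, against -9.2 to 6.42 in the rest of their group. Pseudogenes took 27.8 ± 1.73% of footprint counts in BCAA-free 5+3 mice, 24 ± 1.91% in BCAA-free vehicle mice, 24.5 ± 1.18% in AA 5+3 mice and 25.2 ± 2.84% in AA vehicle mice (SD). All 8 measured markers of the leukaemia were found in both kinds of library. Levels are given as CPM (counts scaled to a common library total) after TMM scaling, and changes as log2 fold changes ± SE from edgeR's quasi-likelihood test, with p-values adjusted over all genes tested by the Benjamini-Hochberg method and a threshold of 0.05. CPM does not correct for gene length, so it is used to compare a gene between groups and never one gene with another.

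On the BCAA-free diet, footprints of hnRNP genes were higher after 5+3 than after vehicle. Of 20 hnRNP genes, 12 rose and 0 fell, with a class median log2 change of 0.24, against a median of -0.02 over all 15723 genes tested. In this comparison 20.6% of all genes passed the test, 8.76% as higher and 11.9% as lower. Among protein-coding genes with a mean of at least 10 CPM, 8.32% passed as higher and 17.1% as lower. The classes differed in their counts, as 2 of 12 snRNP protein genes, 1 of 9 SF3 genes and 1 of 13 PRPF genes rose, while 5 PRPF genes fell. The median log2 changes were 0.21 for snRNP proteins, 0.06 for SF3 and 0.01 for PRPF. Over all members 16 rose and 5 fell.

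The smallest adjusted p among hnRNP genes belonged to Hnrnph2, whose protein binds runs of G and regulates exon inclusion. Its footprints lay between 132 and 197 CPM (median 160) in BCAA-free 5+3 mice, against 117, 106, 126, 105 and 110 CPM in BCAA-free vehicle mice. No 5+3 mouse overlapped the vehicle mice, and the log2 change was 0.53 ± 0.09 (adjusted p = 0.000391). Hnrnpa1, an abundant splicing repressor that shuttles between nucleus and cytoplasm, lay between 493 and 699 CPM (median 590) in BCAA-free 5+3 mice, against 387, 504, 475, 357 and 422 CPM in BCAA-free vehicle mice. The groups met only at 1 vehicle mouse with 504 CPM, and the log2 change was 0.48 ± 0.11 (adjusted p = 0.00339). The footprint value of Hnrnpa1 is uncertain because of its copies, given below.

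Hnrnpd encodes AUF1, which binds AU-rich elements of short-lived mRNAs. Its footprints were 291 to 346 CPM (median 318) in BCAA-free 5+3 mice, against 263, 239, 269, 233 and 223 CPM in BCAA-free vehicle mice, without overlap. The log2 change was 0.36 ± 0.08 (adjusted p = 0.00409). Its close relative Hnrnpdl reached 138 to 183 CPM (median 169) after 5+3, against 115, 138, 138, 84.3 and 68.2 CPM after vehicle. The vehicle mice were spread widely, and those with most Hnrnpdl reached the lowest 5+3 mice, with a log2 change of 0.57 ± 0.14 (adjusted p = 0.00764).

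Hnrnpc, which binds U-rich tracts of introns, was at 218 to 290 CPM (median 242) in BCAA-free 5+3 mice, against 213, 182, 187, 209 and 195 CPM in BCAA-free vehicle mice. Hnrnpu, a nuclear scaffold protein, was at 1164 to 1522 CPM (median 1269) in BCAA-free 5+3 mice, against 1062, 946, 1115, 1003 and 1062 CPM in BCAA-free vehicle mice. In neither gene did the groups overlap, with log2 changes of 0.34 ± 0.08 for Hnrnpc (adjusted p = 0.00422) and 0.30 ± 0.09 for Hnrnpu (adjusted p = 0.0138). The other 6 that rose were Hnrnpm, Hnrnpab, Hnrnpk, Hnrnpa3, Hnrnpa2b1 and Hnrnpf, with log2 changes of 0.23 to 0.32. Hnrnpk, whose KH domains bind C-rich RNA, averaged 841 ± 30.2 CPM in BCAA-free 5+3 mice and 707 ± 67.7 CPM in BCAA-free vehicle mice (SD, n = 7 and 5), and Hnrnpa2b1, a relative of Hnrnpa1 with roles in RNA transport, averaged 1248 ± 124 CPM after 5+3 and 1039 ± 87.5 CPM after vehicle. Among the 8 hnRNP genes that did not pass were Hnrnpll, the regulator of CD45 splicing in lymphocytes, at 65.4 ± 5.42 CPM after 5+3 and 65.1 ± 3.75 CPM after vehicle (log2 change 0.01 ± 0.08), and Hnrnpul2, with the lowest change of the class at -0.16 ± 0.08.

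**Figure D1:**
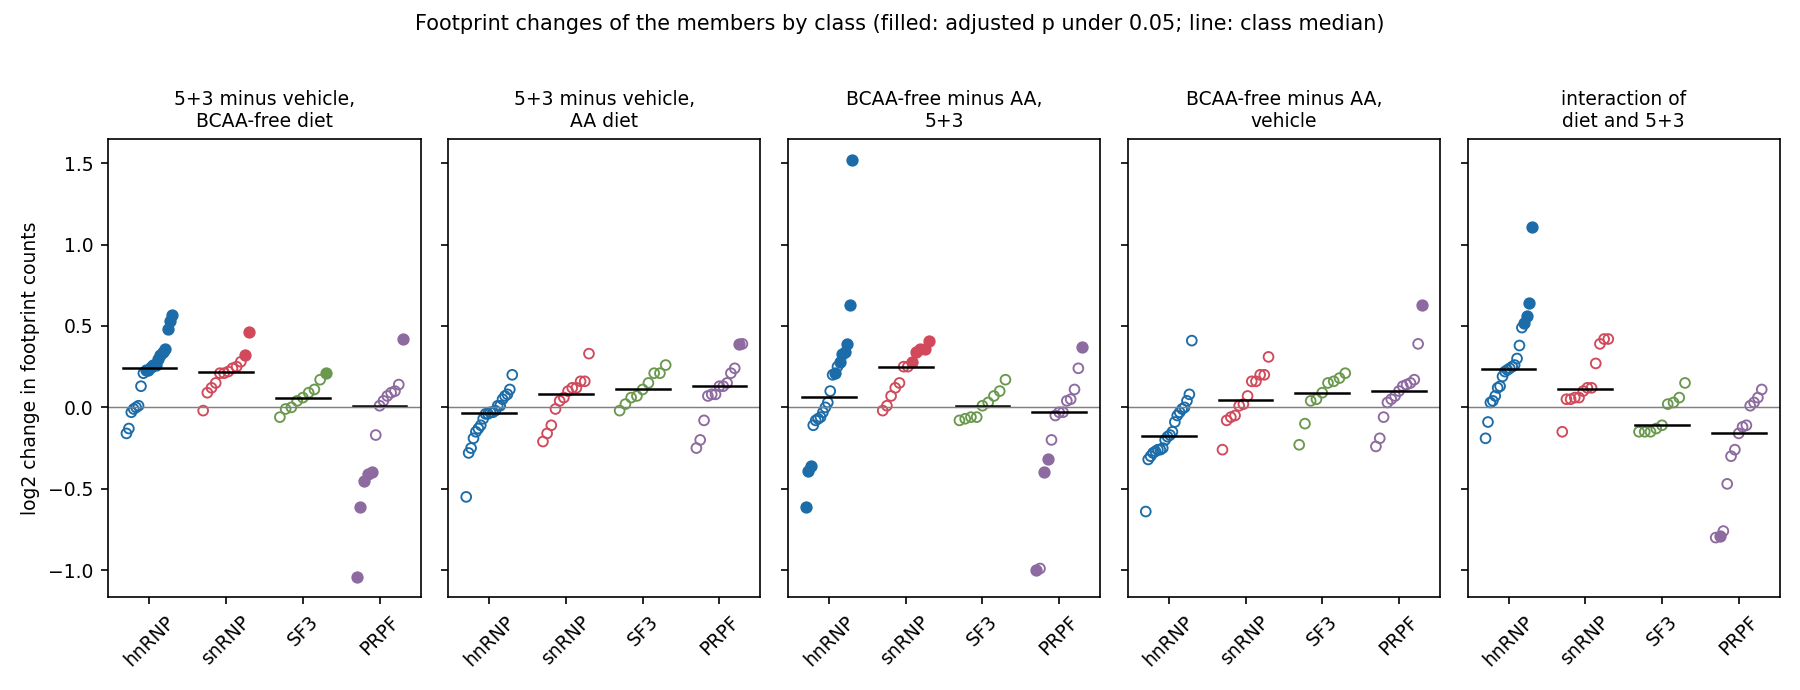
Log2 change in footprint counts (y axis) of each member, by class (x axis), in the 5 comparisons. Each point is a gene, filled where the adjusted p was under 0.05, and lines are class medians. In 5+3 against vehicle on the BCAA-free diet, 12 of 20 hnRNP genes are filled above 0 and 5 of 13 PRPF genes are filled below 0.

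Of the snRNP proteins, Snrpa1 and Snrpd1 rose with 5+3 on the BCAA-free diet. Snrpa1 encodes a protein of the U2 snRNP. It was at 55.1 to 82.6 CPM (median 60.2) in BCAA-free 5+3 mice, against 52.2, 42.7, 42, 48.2 and 47.4 CPM in BCAA-free vehicle mice, without overlap (log2 change 0.46 ± 0.10, adjusted p = 0.00303). Snrpd1, the Sm ring protein D1, was at 132 to 175 CPM (median 143) after 5+3, against 129, 109, 122, 114 and 108 CPM after vehicle, also without overlap (0.32 ± 0.09, adjusted p = 0.0125). Snrpb, another Sm ring gene, averaged 154 ± 9.54 CPM after 5+3 and 157 ± 12.1 CPM after vehicle, a log2 change of -0.02 ± 0.08. In the U2 branch point complex Sf3b2 rose by a log2 change of 0.21 ± 0.07 (adjusted p = 0.0384), a call lost in 6 of 12 fits that left out 1 mouse, while Sf3b1, which contacts the branch point, averaged 447 ± 24.9 CPM after 5+3 and 434 ± 35 CPM after vehicle.

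The PRPF genes went both ways. Prpf31, which holds the tri-snRNP together and is mutated in human retinitis pigmentosa, was at 53.3 to 71.5 CPM (median 66) in BCAA-free 5+3 mice, against 47, 41, 47.3, 53.2 and 47.9 CPM in BCAA-free vehicle mice (log2 change 0.42 ± 0.09, adjusted p = 0.00212). Prpf3, its partner in the U4/U6 snRNP, was at 24.2 to 33.2 CPM (median 30.9) after 5+3, against 42.4, 37.4, 41.2, 37.6 and 37.4 CPM after vehicle (-0.41 ± 0.10, adjusted p = 0.00704). Neither gene's groups overlapped, and the directions were opposite. Prpf39, a factor associated with the U1 snRNP, was at 19.3 to 25.1 CPM (median 20) after 5+3, against 26.6, 29, 29, 30.9 and 28.7 CPM after vehicle, without overlap (-0.45 ± 0.11, adjusted p = 0.00565). The kinase Prpf4b (-0.40 ± 0.10, adjusted p = 0.00702) and Prpf38b (-0.61 ± 0.17, adjusted p = 0.015) fell as well, with overlapping groups. Prpf40b fell too (-1.04 ± 0.37, adjusted p = 0.0478), at a mean of 0.875 CPM after 5+3 and 1.83 CPM after vehicle. Its call was lost in 9 of 12 fits that left out 1 mouse. Prpf8, the catalytic core protein, averaged 531 ± 52 CPM after 5+3 and 504 ± 47 CPM after vehicle, and Prpf19, a ubiquitin ligase of spliceosome activation, averaged 142 ± 13.3 CPM after 5+3 and 133 ± 11.2 CPM after vehicle.

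Without the 4 mice whose mRNA libraries stood apart, which leaves 2 BCAA-free vehicle mice, 0 members passed in this comparison by edgeR, and 395 genes in all passed. The median log2 change of the hnRNP genes was then 0.22, with 15 of 20 above 0, and that of the snRNP proteins was 0.20. Other marker genes moved with the same comparison in footprints. All 5 measured red cell markers were lower, with a summed share of counts of 0.000797 to 0.0026% in BCAA-free 5+3 mice, against 0.0116 to 0.0215% in BCAA-free vehicle mice. Of 9 mature neutrophil markers 8 were lower, at 0.0107 to 0.115% after 5+3 against 0.0864 to 0.145% after vehicle, and of 9 measured monocyte and macrophage markers 6 were lower, at 0.00722 to 0.0202% against 0.024 to 0.0344%. No marker was at 0 in every library. Their part in the results on the members was not tested, and in bulk samples fewer cells of a type and less RNA per cell cannot be told apart.

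On the AA diet, 5+3 changed the footprints of 1 member. Prpf31 was at 71.3, 61.1, 61.3 and 63.3 CPM in AA 5+3 mice, against 46.6, 56.6, 45.4, 48.5 and 49.1 CPM in AA vehicle mice, and the groups did not overlap (log2 change 0.39 ± 0.10, adjusted p = 0.0209). In this comparison 6.61% of all genes passed, 3.49% as higher, so 1 of 54 members is under the background. Without AA 5+3 replicate 1 the adjusted p was 0.0888. Without AA vehicle replicates 1 and 2, 2 members rose and 2 hnRNP genes fell, where 9.17% of all genes passed. The lowest change was that of Hnrnpdl at -0.55 ± 0.17 (adjusted p = 0.0522). Median log2 changes were -0.03 for hnRNP, 0.08 for snRNP proteins, 0.11 for SF3 and 0.13 for PRPF. Of 9 measured monocyte and macrophage markers 7 were lower after 5+3 on this diet, and their part in the results was not tested.

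The diets were compared under each treatment. Under vehicle, the BCAA-free diet raised 1 member over the AA diet in footprints, where 2.04% of all genes passed, 0.642% as higher. Prpf39 was at 26.6, 29, 29, 30.9 and 28.7 CPM in BCAA-free vehicle mice, against 12.6, 17.2, 20.9, 16.6 and 24.4 CPM in AA vehicle mice, without overlap (0.63 ± 0.12, adjusted p = 0.00632). Without the 4 mice it did not pass (0.68, adjusted p = 0.184). The median of the hnRNP genes was -0.17, with 3 of 20 above 0 and none past the test by edgeR. At an unadjusted p under 0.05 there were 10 hnRNP genes, 9 lower and 1, Hnrnpdl, higher (0.41 ± 0.16), where 17.5% of all genes had such a p. DESeq2 called 7 hnRNP genes lower and 0 higher, and over all members 3 higher and 8 lower, where it called 3.76% of all genes. The lowest change was that of Hnrnph3 at -0.64 ± 0.19 (adjusted p = 0.0756). Without AA vehicle replicates 1 and 2, 1 PRPF gene was higher and 2 hnRNP genes were lower, where 3.75% of all genes passed. Monocyte and macrophage markers, with 1 of 9 measured genes lower, summed to 0.024 to 0.0344% of footprint counts in BCAA-free vehicle mice, against 0.0331 to 0.0712% in AA vehicle mice. Red cell markers, with 1 of 5 measured genes higher, summed to 0.0116 to 0.0215% in BCAA-free vehicle mice, against 0.00347 to 0.0137% in AA vehicle mice. Of the T and NK cell markers only 1 of 9 passed the filter on low counts in footprints. Their sums were 0.000666 to 0.00114% in BCAA-free vehicle mice, against 0.000371 to 0.000634% in AA vehicle mice, without overlap. In mRNA, where all 9 passed the filter, the same sums overlapped, at 0.00592 to 0.0107% against 0.00575 to 0.00755%. Of 9 neutrophil markers 1 was higher in footprints. Their part in the results was not tested.

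Under 5+3, the BCAA-free diet gave higher footprints than the AA diet for 13 members and lower footprints for 6. Here 28.3% of all genes and 35.5% of protein-coding genes with at least 10 CPM passed, so the count over all members, 19 of 54, is close to the background. In the higher direction 12.5% of all genes passed, and in the lower direction 15.8%. By class, 7 hnRNP genes were higher and 3 lower (median 0.06), 5 snRNP proteins were higher and 0 lower (median 0.25), 0 SF3 genes passed by edgeR, with 0 at an unadjusted p under 0.05 and 0 by DESeq2, and 1 PRPF gene was higher and 3 were lower. The smallest adjusted p-values among members were those of a pair of related hnRNP genes that lie near each other on chromosome 5.

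Hnrnpdl (chr5:100033577-100039936, GRCm38) had 138 to 183 footprint CPM (median 169) in BCAA-free 5+3 mice, against 53.2, 59.5, 46.8 and 65 CPM in AA 5+3 mice. The lowest BCAA-free mouse stood far above the highest AA mouse, and the log2 change was 1.52 ± 0.16 (adjusted p = 1.15e-06). Hnrnpd (chr5:99955935-99979130) had 291 to 346 CPM (median 318), against 198, 204, 191 and 220 CPM, again without overlap (0.63 ± 0.09, adjusted p = 2.23e-05). Both calls held in every fit that left out 1 mouse and in every other alternative run, those without the 4 mice included. The span of Hnrnpdl shares 909 bases with Enoph1, a gene chosen after values were seen. With no strand stated for the counting, reads in that stretch cannot be told apart, and Enoph1 itself, at a mean of 19.7 CPM, had a log2 change of 0.13 ± 0.12 (adjusted p = 0.44).

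Hnrnpk was also higher under the BCAA-free diet, at 803 to 885 CPM (median 844) in BCAA-free 5+3 mice, against 646, 646, 708 and 676 CPM in AA 5+3 mice (0.33 ± 0.08, adjusted p = 0.005). Hnrnpa3 (0.39 ± 0.11), Hnrnph2 (0.34 ± 0.10), Hnrnpa0 (0.28 ± 0.10) and Hnrnpab (0.21 ± 0.08) were the others that passed as higher. The lower hnRNP genes included Hnrnpll, at 58.2 to 74.7 CPM (median 64.4) in BCAA-free 5+3 mice, against 84.1, 80, 94.2 and 84.3 CPM in AA 5+3 mice. Its groups did not overlap, and the log2 change was -0.39 ± 0.08 (adjusted p = 0.00146). Hnrnpul2 (-0.36 ± 0.08, adjusted p = 0.00227) and Hnrnph3 (-0.61 ± 0.18, adjusted p = 0.016) were lower too, without overlap. The hnRNP family thus moved in both directions between the diets under 5+3.

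All 5 snRNP proteins that passed belong to the Sm ring, of which all 8 measured genes had changes above 0 (median 0.31). Here and below, the 8 include Snrpn, whose footprint value is uncertain because its protein is nearly identical to that of Snrpb. They also include Snrpe, whose footprint value is uncertain because of a copy, given below. Snrpd2 was at 68.6 to 89.8 CPM (median 78.9) in BCAA-free 5+3 mice, against 62.5, 62.4, 67.5 and 57.5 CPM in AA 5+3 mice, and Snrpd1 was at 132 to 175 CPM (median 143), against 113, 114, 105 and 124 CPM. The groups did not overlap for either gene (Snrpd2 0.36 ± 0.09, adjusted p = 0.00403, and Snrpd1 0.34 ± 0.09, adjusted p = 0.0075). Snrpg, Snrpf and Snrpe passed with log2 changes of 0.41 ± 0.12, 0.36 ± 0.13 and 0.28 ± 0.10. Snrpg lost its call without AA 5+3 replicate 3 (adjusted p = 0.0739), Snrpf in 5 of 11 fits that left out 1 mouse and Snrpe in 6 of 11. Snrpb, the Sm ring gene with the smallest change, was at 0.01 ± 0.09.

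Among PRPF genes, Prpf38b, a relative of the tri-snRNP factor Prpf38a, had 23.5 to 46 CPM (median 31.6) in BCAA-free 5+3 mice, against 69.5, 58.5, 63.7 and 67.7 CPM in AA 5+3 mice. The groups lay well apart (0.501-fold, with a log2 change between -1.34 and -0.65 in its 95% interval, adjusted p = 0.000324). Prpf3 (-0.40 ± 0.11, adjusted p = 0.00798) and Prpf4b (-0.32 ± 0.11, adjusted p = 0.0282) were lower as well, and Prpf39 was higher (0.37 ± 0.13, adjusted p = 0.0278). Without the 4 mice 12 members were higher and 5 lower, where 23.9% of all genes passed, and 16 of the 19 calls were shared. Red cell markers were lower in this comparison in all 5 measured genes and neutrophil markers in 5 of 9, and of 9 measured monocyte markers 1 was higher and 2 were lower. Their part in the results was not tested.

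**Figure D2:**
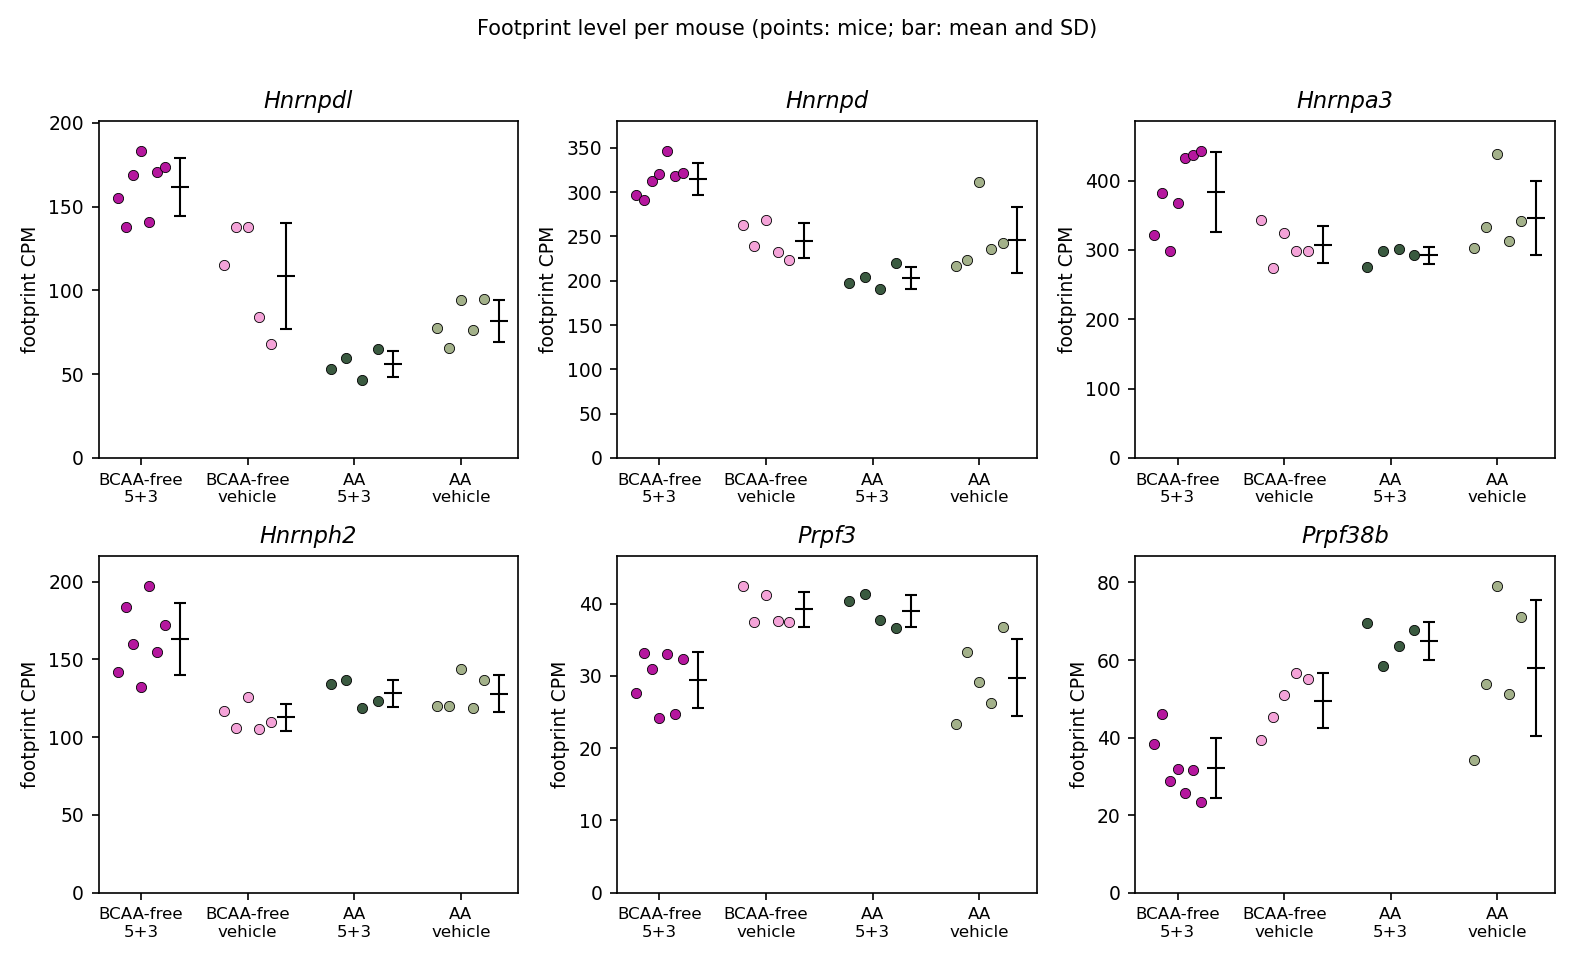
Footprint level in CPM (y axis, from 0) of members that the results turn on, in each mouse of the 4 groups (x axis). Points are mice, and bars are the mean and SD. For Hnrnpdl the 7 BCAA-free 5+3 mice sit between 138 and 183 CPM, above the 4 AA 5+3 mice at 46.8 to 65 CPM.

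Whether 5+3 acted differently on the diets was tested as the interaction, the 5+3 change on the BCAA-free diet minus that on the AA diet. It passed for 5 of 54 members, against 7.09% of all genes. The count over all members is thus near the background. In the higher direction it passed for 4 members, all hnRNP genes, against 3.29% of all genes and 1.51% of protein-coding genes with at least 10 CPM, and in the lower direction for 1, against 3.8% of all genes. Hnrnpdl had the largest difference, 1.11 ± 0.22 (adjusted p = 0.00528), from a change of 0.57 ± 0.14 on the BCAA-free diet and -0.55 ± 0.17 on the AA diet. In AA vehicle mice it was at 77.7, 65.9, 94.4, 76.6 and 94.8 CPM, so that by group mean BCAA-free 5+3 mice were the highest of the 4 groups and AA 5+3 mice the lowest. Hnrnpd was likewise highest in BCAA-free 5+3 mice and lowest in AA 5+3 mice, with an interaction of 0.64 ± 0.13 (adjusted p = 0.00475), from 0.36 ± 0.08 and -0.28 ± 0.10, and 217, 224, 311, 236 and 243 CPM in AA vehicle mice.

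Hnrnpa3, a relative of Hnrnpa2b1, had an interaction of 0.56 ± 0.16 (adjusted p = 0.0299), from 0.32 ± 0.10 on the BCAA-free diet and -0.25 ± 0.12 on the AA diet. It lost its call without AA vehicle replicate 3, AA 5+3 replicate 1 or BCAA-free vehicle replicate 5, with an adjusted p of up to 0.0648. Hnrnph2 had 0.52 ± 0.14 (adjusted p = 0.025), from 0.53 ± 0.09 and 0.01 ± 0.10. Prpf3 went the other way at -0.79 ± 0.16 (adjusted p = 0.00475), since it was lower after 5+3 on the BCAA-free diet (-0.41 ± 0.10) and not past the test on the AA diet (0.39 ± 0.12, adjusted p = 0.0514). Its AA 5+3 mice had 40.3, 41.4, 37.8 and 36.6 CPM, against 23.3, 33.3, 29.2, 26.3 and 36.7 CPM in AA vehicle mice. Without the 4 mice only Hnrnpdl kept its interaction call (1.08, adjusted p = 0.0326), and 0.659% of all genes passed. The differences of the other 4 were then -0.81 for Prpf3 (adjusted p = 0.0546), 0.62 for Hnrnpd (adjusted p = 0.0678), 0.53 for Hnrnpa3 and 0.49 for Hnrnph2. Without AA vehicle replicates 1 and 2, 6 hnRNP genes and 3 snRNP proteins passed as higher and 1 PRPF gene as lower, where 13.2% of all genes passed. Red cell markers had a lower interaction in 5 of 5 measured genes. The neutrophil marker Mmp9 (-2.09 ± 0.62, adjusted p = 0.0497) and Nkg7, a T and NK cell marker (-1.12 ± 0.31, adjusted p = 0.0291), were lower too. No other measured marker passed, and the part of these markers was not tested.

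The proximal promoters of these 5 members were read from RefSeq (GRCm38.p6). Windows run from 250 bases before to 50 after an annotated start, and 46 of the 54 members have such a window. Where several are listed the first was read, as for Prpf3, which has 2. The window of Hnrnpdl (chr5:100039173-100039472) lies wholly inside the gene's span, so bases before the gene's outer start were not read. The palindrome CACGTG, the core of E-boxes bound by factors such as Myc, lies in the window of 4 of the 5 (all but Hnrnpdl). It lies in 8 of the 46 member windows and in 7.24% of all 27025 windows, and it reads the same on both strands. The runs below show the 30 bases around it on the strand of each gene, 5′ to 3′, with the motif in capitals, because they show where in the sequence the motif of the members with an interaction lies.
Hnrnpa3, chr2:75659229-75659258, plus strand: cggatagcacatCACGTGgtgactggcccc
Hnrnpd, chr5:99978953-99978982, minus strand: gcgctccggagcCACGTGaccgggacgcgc
Hnrnph2, chrX:134601182-134601211, plus strand: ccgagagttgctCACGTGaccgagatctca
Prpf3, chr3:95855856-95855885, minus strand: gccttccgtagtCACGTGccgtagggaccg
The motif is upstream of the window's annotated start in Hnrnpa3 and Hnrnpd. It is just downstream of that start in Hnrnph2 and Prpf3, whose interactions have opposite signs. In Hnrnpa3 and Hnrnpd the window's start and the motif both lie inside the gene's span, so the motif is not upstream of the gene's outer start. The CCGGAAG core of ETS sites, searched on both strands, lies in 6 of 7 SF3 windows and in 15 of 46 member windows, against 9.12% of all, and CCAAT, searched on both strands, lies in 12 of 18 hnRNP windows and in 24 of 46 member windows, against 37.9% of all. TGACGTCA, the cyclic AMP response element, lies in 2 of 46 member windows and in 1.88% of all, and TGATGCAA, an amino acid response element searched on both strands, lies in 0 of 46 and in 0.929% of all. A match is a description of the letters and no evidence of a bound factor.

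In mRNA, 5+3 on the BCAA-free diet raised 10 members over vehicle and lowered 2, where 8.56% of all 21114 genes passed, 4.33% as higher and 4.23% as lower, and where 15% of protein-coding genes with at least 10 CPM passed, 9.05% as higher. Of the hnRNP genes 6 rose and 2 fell, and 1 snRNP protein, 1 SF3 gene and 2 PRPF genes rose. Hnrnpa1 had 243 to 683 CPM in mRNA (median 396) in BCAA-free 5+3 mice, against 229, 233, 181, 242 and 202 CPM in BCAA-free vehicle mice. Its groups lay side by side without overlap, and the log2 change was 0.88 ± 0.21 (adjusted p = 0.0171). Hnrnpf (1.52 ± 0.37), Hnrnph2 (1.37 ± 0.33), Hnrnpk (1.03 ± 0.27), Hnrnpc (0.61 ± 0.19) and Hnrnpab (0.53 ± 0.16) were the other hnRNP genes that rose. All 6 of these also rose in footprints, by smaller log2 changes.

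Hnrnpul2 was at 30.6 to 58 CPM (median 45.4) in BCAA-free 5+3 mRNA, against 62.9, 127, 95.5, 59.8 and 127 CPM in BCAA-free vehicle mRNA, without overlap (-1.06 ± 0.23, adjusted p = 0.0115), and Hnrnph3 fell by 0.75 ± 0.22 on the log2 scale (adjusted p = 0.0389). Sf3b4, a subunit of the branch point complex, was the member with the largest mRNA change, at 24.4 to 162 CPM (median 77.2) after 5+3, against 28.9, 14.4, 12.9, 27.5 and 26.1 CPM after vehicle. The 5+3 mice spread widely and the lowest of them lay within the vehicle mice (2.12 ± 0.51, adjusted p = 0.0179). In footprints Sf3b4 averaged 58.7 ± 2.37 CPM after 5+3 and 52.3 ± 6 CPM after vehicle, a log2 change of 0.17 ± 0.11. Prpf19 (1.18 ± 0.30), Prpf31 (0.98 ± 0.24) and Snrpa, a protein of the U1 snRNP (0.85 ± 0.25), rose in mRNA too. Without the 4 mice 0 members passed by edgeR, and 19 genes in all passed. The log2 changes were then 2.34 for Sf3b4, 1.37 for Prpf19, 1.08 for Hnrnph2 and 0.93 for Hnrnpa1, and -0.77 for Hnrnpul2. Without BCAA-free vehicle replicate 2 the calls of Sf3b4 (adjusted p up to 0.0535), Hnrnpf (0.0523) and Hnrnph2 (0.0595) were lost. Markers of other cells also moved in these mRNA libraries. Of 8 measured red cell markers 6 were lower, at a summed 0.000243 to 0.00116% of counts in BCAA-free 5+3 mice, against 0.00751 to 0.0125% in BCAA-free vehicle mice. All 9 neutrophil markers were lower, at 0.0272 to 0.265% after 5+3 against 0.364 to 0.453% after vehicle, and 4 of 10 monocyte markers were lower, at 0.0182 to 0.0337% after 5+3 against 0.0338 to 0.0853% after vehicle. None of these 3 sums overlapped between the groups, and their part in the results was not tested.

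The Sm ring genes differed between the kinds of library in this comparison. In mRNA none of the 7 measured passed, and all 7 had log2 changes below 0 (median -0.55), with 4 of them at an unadjusted p under 0.05, against 27.1% of all genes. In footprints 7 of 8 had changes above 0 (median 0.23). Snrpf, for example, had 179 to 646 CPM in mRNA (median 226) in BCAA-free 5+3 mice, against 765, 712, 456, 360 and 591 CPM in BCAA-free vehicle mice, with overlapping groups (-0.82 ± 0.33, adjusted p = 0.117). In footprints Snrpf had 73.3 to 104 CPM (median 81.6), against 75.9, 70.2, 71.3, 77.1 and 68.9 CPM (0.21 ± 0.12, adjusted p = 0.201). The share of mRNA counts in ribosomal protein genes, which like the Sm genes have short mRNAs, moved with these values and was 3.55 to 7.9% in BCAA-free 5+3 mice and 6.18 to 11.6% in BCAA-free vehicle mice. Its part in the result was not tested.

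**Figure D3:**
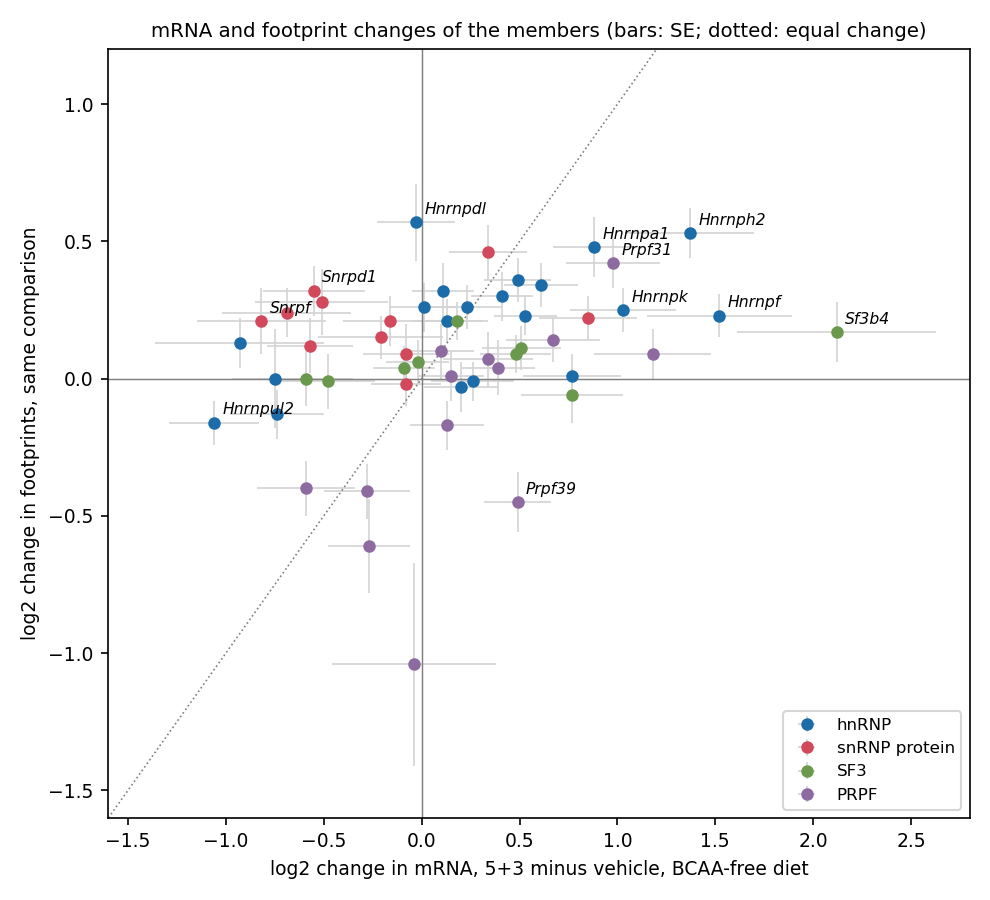
Log2 change in footprints (y axis) against log2 change in mRNA (x axis) for the 53 members measured in both, 5+3 minus vehicle on the BCAA-free diet. Points are genes coloured by class, bars are SE, and the dotted line marks equal change. Sf3b4 lies farthest right, at 2.12 in mRNA and 0.17 in footprints, and the Sm ring genes lie left of 0.

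Translational efficiency, the footprint level relative to the mRNA level, was tested by asking whether a group difference in footprints departed from that in mRNA of the same mice, in 1 model blocked by mouse. The mRNA and footprint libraries of 1 mouse deviated together only weakly, with a median r of 0.0811 (-0.0349 to 0.3) over 21 pairs. This r is of deviations and not of whole profiles, and 8 libraries matched their own partner best. For 5+3 on the BCAA-free diet 4 members passed as higher and 2 as lower, where 7.45% of all 12097 genes passed, 3.51% as higher and 3.94% as lower, and the median of all genes was -0.11. Snrpf (1.27 ± 0.38, adjusted p = 0.0479) and Snrpd1 (1.04 ± 0.29, adjusted p = 0.0389) of the Sm ring were higher, as were Hnrnpul2 (0.98 ± 0.25, adjusted p = 0.0328) and Hnrnpdl (0.79 ± 0.23, adjusted p = 0.0422). All 7 Sm ring genes had changes above 0 (median 1.01). Sf3b4 (-1.72 ± 0.46, adjusted p = 0.0377) and Prpf39 (-0.80 ± 0.21, adjusted p = 0.033) were lower. For Hnrnpdl the mRNA change was -0.03 ± 0.20 beside 0.57 ± 0.14 in footprints, and for Prpf39 it was 0.49 ± 0.17, not past the test, beside -0.45 ± 0.11. Every one of these 6 calls was lost in 7 or 8 of 12 fits that left out 1 mouse, and 0 members, and 0 of all genes, passed without the 4 mice, where Sf3b4 lay further below 0 than with all mice and the other log2 changes were -0.93 for Prpf39, 0.92 for Snrpf, 0.83 for Snrpd1, 0.72 for Hnrnpul2 and 0.69 for Hnrnpdl. With all mice, the red cell markers Hba-a1 (2.79 ± 0.68), Hba-a2 (3.11 ± 0.63) and Hbb-bs (2.03 ± 0.58) also passed as higher. So did the neutrophil markers Camp (0.88 ± 0.25) and S100a9 (1.02 ± 0.29), and the monocyte marker Csf1r was lower (-1.13 ± 0.34). The part of these markers in the results was not tested.

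The other comparisons in mRNA gave no member past the test by edgeR. For 5+3 on the AA diet 0.0616% of all genes passed, with 0 members at an unadjusted p under 0.05, against 5.89% of all genes, and 0 by DESeq2. For the diets under vehicle 0% of all genes passed, with 7 of 53 members at an unadjusted p under 0.05, against 11.2% of all genes, and 0 by DESeq2, and all 7 Sm ring genes had changes above 0 (median 0.72). For the diets under 5+3 1.24% of all genes passed, with 6 members at an unadjusted p under 0.05, against 13% of all genes, and 2 by DESeq2, 1 in each direction. The interaction passed for 0.0758% of all genes, with 13 members at an unadjusted p under 0.05, against 12.1% of all genes, and 0 by DESeq2. Among members with a mean of at least 10 CPM, the highest and lowest mRNA changes were those of Snrpg (0.59 ± 0.39) and Prpf40b (-0.60 ± 0.48) for 5+3 on the AA diet, Snrpf (1.03 ± 0.37) and Sf3b4 (0.501-fold) for the diets under vehicle, Sf3b4 (0.92 ± 0.52) and Hnrnpul2 (-0.92 ± 0.24) for the diets under 5+3, and Sf3b4 (1.91 ± 0.73) and Snrpg (-1.10 ± 0.51) for the interaction.

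For translational efficiency the other 3 comparisons also gave 0 members by edgeR, with 0, 7 and 5 members at an unadjusted p under 0.05 for 5+3 on the AA diet, the diets under vehicle and the diets under 5+3, where 0%, 0% and 0.00827% of all genes passed and 2.75%, 8.95% and 7.29% had an unadjusted p under 0.05. Hnrnpdl had the highest change between the diets under 5+3, 1.05 ± 0.24 (adjusted p = 0.225), and Prpf38b the lowest among members with at least 10 CPM, -0.70 ± 0.32. DESeq2 was not run on translational efficiency. Between the diets under vehicle Prpf39 was highest (0.79 ± 0.23) and Snrpf lowest (-1.10 ± 0.41).

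The mean of log2(CPM + 1) over the 20 hnRNP genes summarises the class in each mouse. In footprints it was 8.04 ± 0.07 in BCAA-free 5+3 mice, 7.84 ± 0.07 in BCAA-free vehicle mice, 7.92 ± 0.04 in AA 5+3 mice and 7.98 ± 0.10 in AA vehicle mice (SD, n = 7, 5, 4 and 5). The lowest group was the BCAA-free vehicle group, and the AA groups lay between. The 8 Sm ring genes had 6.25 ± 0.09, 6.06 ± 0.11, 5.97 ± 0.13 and 5.97 ± 0.13 in the same order of groups. The difference of the hnRNP mean and the mean of the 12 snRNP proteins was 1.86 ± 0.09, 1.86 ± 0.09, 1.96 ± 0.10 and 2.07 ± 0.11, so that on the BCAA-free diet the classes kept the same distance with and without 5+3. In mRNA the hnRNP mean was 7.98 ± 0.10, 7.75 ± 0.05, 7.81 ± 0.08 and 7.85 ± 0.08. That of the 7 measured Sm ring genes was 8.55 ± 0.54, 9.11 ± 0.38, 8.65 ± 0.49 and 8.43 ± 0.40, with a spread between mice several times that of the hnRNP genes. These means are a description, and no test was made of them.

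**Figure D4:**
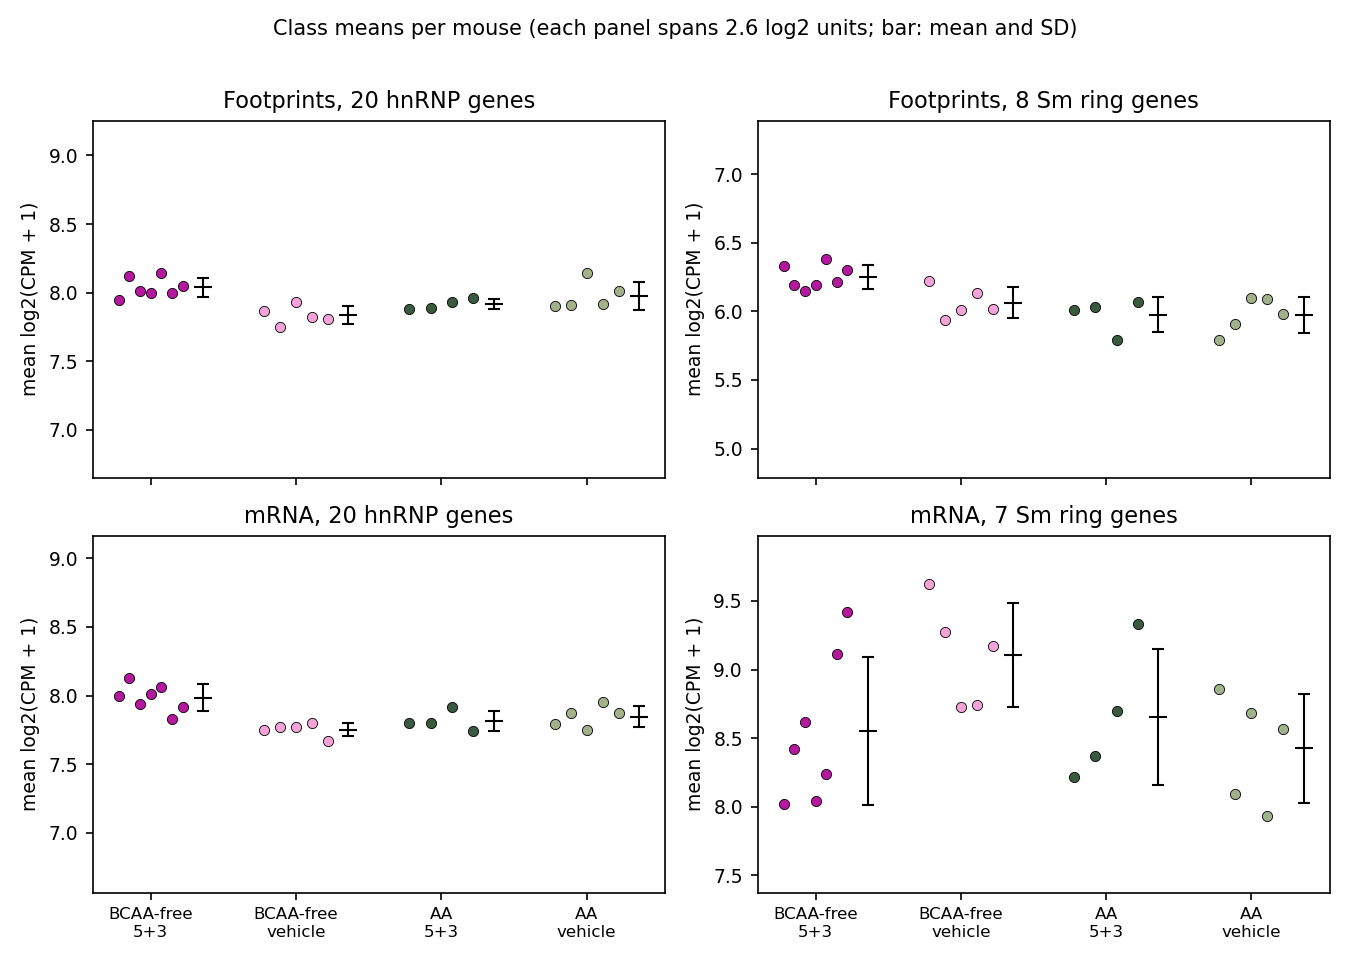
Mean log2(CPM + 1) (y axis) over the hnRNP genes and over the Sm ring genes in each mouse of the 4 groups (x axis), in footprints and in mRNA. Points are mice, bars are the mean and SD, and each panel spans the same number of log2 units. In footprints the hnRNP mean is highest in BCAA-free 5+3 mice (8.04) and lowest in BCAA-free vehicle mice (7.84), and in mRNA the Sm ring mean spreads most.

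Snrpn, which encodes the SmN protein that replaces SmB mainly in neurons, was at 10.4 ± 2.02, 8.77 ± 1.58, 9.13 ± 3.14 and 10.4 ± 1.07 footprint CPM in BCAA-free 5+3, BCAA-free vehicle, AA 5+3 and AA vehicle mice. In mRNA it was near 0 in every group, at means of 0.019 to 0.0526 CPM. Its protein is nearly identical to that of Snrpb, so its footprint value is uncertain. The 5 copies left out of the members also had footprint counts. Hnrnpa1l2-ps and Hnrnpa1l2-ps2 had 43.8 and 56.6% of the Hnrnpa1 count (medians over footprint libraries), Snrpert had 70.7% of Snrpe, and Snrp1c-ps1 had 17.6% of Snrpc. In mRNA libraries these shares were under 1%, except for Snrpert at 3.2%. The handling of reads with several matches is not stated, so the footprint values of Hnrnpa1, Snrpe and Snrpc are uncertain too. With the copies summed into their parents, 16 members rose and 5 fell with 5+3 on the BCAA-free diet, the diets under 5+3 gave 14 higher and 6 lower, and the interaction gave 4 and 1.

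Of 87 measured genes in other spliceosome lists, 9 rose and 5 fell in footprints with 5+3 on the BCAA-free diet (median 0.04), a smaller share than the 20.6% of all genes that passed. Srsf5, an SR protein that promotes exon inclusion, moved most (0.85 ± 0.12, adjusted p = 5.53e-05), and Srsf11 fell (-0.50 ± 0.10, adjusted p = 0.00112). Of the U1 and U2 factors Luc7l3 fell (-0.73 ± 0.17) and U2af1, the small subunit that reads the 3′ splice site, rose (0.34 ± 0.08). In the U5 and tri-snRNP list Eftud2, the U5 GTPase, rose by 0.32 ± 0.09 and Snrnp40 by 0.28 ± 0.08. Of the minor spliceosome Snrnp35 rose (0.63 ± 0.22) and Zmat5 fell (-0.50 ± 0.12). Isy1 (0.28 ± 0.09) and Strap (0.31 ± 0.08) rose, and the second-step factor Cdc40 fell (-0.31 ± 0.08).

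Between the diets under 5+3 8 of the 87 were higher and 12 lower, also a smaller share than the 28.3% of all genes. Srsf5 was higher by 1.62 ± 0.14 (adjusted p = 6.83e-09) and Srsf10 lower (-0.77 ± 0.13). Luc7l was lower (-0.93 ± 0.18), and Aqr, an RNA helicase, was lower (-0.48 ± 0.10) while Rbm22 was higher (0.48 ± 0.11). Snu13, a U4 snRNA binding protein, was higher (0.51 ± 0.11), Zmat5 lower (-0.45 ± 0.13), and of the Sm assembly genes Clns1a (0.34 ± 0.10) and Gemin2 (0.44 ± 0.15) were higher. With 5+3 on the AA diet 3 rose, Usp39 (0.45 ± 0.10), Eftud2 (0.37 ± 0.11) and Bud31 (0.45 ± 0.12), and Srsf5 fell (-0.96 ± 0.14, adjusted p = 0.000295). In that comparison 6.61% of all genes passed. The interaction passed for 2 as higher and 4 as lower of the 87, against 7.09% of all genes. Srsf5 was at 1.81 ± 0.18 (adjusted p = 2.87e-06) and Srsf10 at -0.74 ± 0.19. Under vehicle none passed between the diets by edgeR, where 2.04% of all genes passed. At an unadjusted p under 0.05 there were 8, against 17.5% of all genes.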

How the data were processed

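Ribosome footprints and Smart-seq2 mRNA were measured in the same 21 mice. The authors deposited whole-number gene counts, 1 table per kind of library, and per the submitters' processing notes cutadapt, Bowtie2, STAR, SAMtools and featureCounts were used with GRCm38 (mm10). For versions, annotation release, strand setting and reads with several matches, the sources used here state nothing. Genes were filtered with filterByExpr (minimum count 10, minimum total 15), scaled by TMM and fitted with edgeR 4.0.16 in R 4.3.3 (robust quasi-likelihood), with all 4 groups in 1 fit per kind of library and no replicate block. Translational efficiency was fitted over both kinds with the mouse as a block. SE is the log2 change divided by the root of F. DESeq2 1.42.0 was an alternative, with other scalings, filters and sets of samples. The scripts were tested on simulated data.

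Members, other lists, motifs and the mice left out as a group were chosen with earlier results of these data known. Genes are named as follows: up to 6 members of each class that pass per comparison, by smallest adjusted p, the highest and lowest change among members with at least 10 CPM, a panel of 14 members, and up to 2 genes of each other spliceosome list. All genes the rule names are given except 1, which is not reported here. Replicate pairs differed by more than sampling noise. Nothing in the labels says that a replicate number links mice of different groups, and same-numbered libraries did not deviate together (median r 0.00199 in footprints and 0.0341 in mRNA).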

Additional observations from a re-analysis of the deposited data

Results flagged for a closer look

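Each group of mice was examined for each of the members named in every group and for class means, 132 sets of values in all, and 5 held a library far from the others, where chance gives about 1 in 20. Within the AA vehicle group Hnrnpd footprints were highest in replicate 3 at 311 CPM. Within the BCAA-free 5+3 group Prpf8 footprints were lowest in replicate 1 at 423 CPM. The other 3 were all AA 5+3 replicate 4 in mRNA. Within its group it was lowest for Hnrnpd at 258 CPM and highest for Snrpa1 at 320 CPM and Prpf8 at 121 CPM.

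The 5+3 change in footprints differed between the diets, by the interaction test, for Hnrnpdl (1.11), Hnrnpd (0.64), Hnrnpa3 (0.56), Hnrnph2 (0.52) and Prpf3 (-0.79).

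The 5 copies outside the members held footprint counts, with means per library of 1201 for Hnrnpa1l2-ps, 1563 for Hnrnpa1l2-ps2, 238 for Snrpert, 42.3 for Snrp1c-ps1 and 6.48 for Snrp1c-ps2.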

How the results depend on the processing

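For footprints of the diets under vehicle, the 1 call was higher, but most calls were lower in 2 alternatives. DESeq2 called 3 members higher and 8 lower, and the fit without the 2 shallowest libraries called 1 higher and 2 lower. No other result changed direction under the alternatives run. Counts of members called that moved by over 1.5 times are given here by comparison, and the cause was not tested. For footprints of 5+3 on the AA diet (1 call) median-ratio scaling, the 2 groups alone, coding genes only and leaving out the 4 mice each gave 2, and DESeq2 and leaving out the 2 shallowest mice each gave 4. Of all genes, DESeq2 called 7.78%, the fit without the shallowest mice 9.17% and that without the 4 mice 5.25%, against 6.61% in the main fit. For the diets under vehicle (1 call) median-ratio scaling and coding genes only gave 2, no filter and leaving out the shallowest mice gave 3, DESeq2 gave 11 and leaving out the 4 mice gave 0. The shares of all genes were 3.75% without the shallowest mice, 3.76% with DESeq2 and 0% without the 4 mice, against 2.04%. For the interaction (5 calls) DESeq2 gave 8, the shallowest mice left out gave 10 and the 4 mice left out gave 1. In that order they called 8.05%, 13.2% and 0.659% of all genes, against 7.09%. For 5+3 on the BCAA-free diet (21 calls) leaving out the 4 mice gave 0, with 2.39% of all genes called against 20.6%.

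In mRNA, 5+3 on the BCAA-free diet (12 calls) gave 21 with DESeq2, 6 with the 2 groups alone and 0 without the 4 mice, and the diets under 5+3 (0 calls) gave 2 with DESeq2 and 1 each with the 2 groups alone, coding genes only or without the 4 mice. For 5+3 on the BCAA-free diet DESeq2 called 16.5% of all genes and the fit without the 4 mice 0.0779%, against 8.56%. For the diets under 5+3 these shares were 3.68% and 2.09%, against 1.24%. Translational efficiency for 5+3 on the BCAA-free diet (6 calls) gave 3 with the 2 groups alone and 0 without the 4 mice, where 0% of all genes passed, against 7.45%.

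With the replicate number as a block, which does not link the mice, the footprint counts were 2 for 5+3 on the AA diet, 15 for 5+3 on the BCAA-free diet, 11 for the diets under 5+3 and 3 for the interaction, and mRNA had 24 for 5+3 on the BCAA-free diet.

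Without 1 mouse at a time, footprint counts ranged over 0 to 4 for 5+3 on the AA diet, 16 to 24 for 5+3 on the BCAA-free diet, 1 to 3 for the diets under vehicle, 14 to 21 for the diets under 5+3 and 4 to 8 for the interaction. In mRNA the ranges were 3 to 20 for 5+3 on the BCAA-free diet and 0 to 1 for the diets under 5+3, and for translational efficiency 0 to 16 for 5+3 on the BCAA-free diet. The other comparisons stayed at 0. For the replicate block, the fits without 1 mouse and the remaining alternatives no share of all genes is given. Their counts thus have no background here.

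Footprint libraries were shallower than mRNA libraries, and genes near the filter, such as Prpf40b and Snrpn, rest on few footprint counts.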
